A study of Oryza sativa Japonica Group with 32 samples.

Results

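OsC3H genes encode CCCH zinc finger proteins of rice, and the 58 genes described here are those whose symbol in the deposited expression table is OsC3H followed by a number. They were 58 of 38978 genes in that table, of which 10843 carried a symbol, and their numbers ran from 1 to 67. The symbol alone chose them, so a CCCH gene listed under another name is not among them. The study profiled polyA RNA of the japonica cultivar Nipponbare (Nip) in 8 tissues, namely dark-grown plumules, light-grown plumules, seedlings at 8 days and at 2 weeks, panicle, and, taken 10 days after anthesis, flag leaf, embryo and endosperm. No genotype, mutant or chemical treatment distinguished the plants, and tissue was the only factor apart from light in the plumules. Each tissue had 2 untreated (input) libraries, which gave transcript levels, and 2 libraries treated by m6A-SAC-seq, a method that marks N6-methyladenosine (m6A) chemically and reads it as a mutation in cDNA at single-base resolution.

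A CCCH zinc finger is a small fold in which cysteines and a histidine hold a zinc ion, and proteins that carry it often bind RNA. In plants the family is mixed: some members are core parts of the splicing or polyadenylation machinery that every cell needs, whereas others, in particular those with a tandem pair of fingers, bind AU-rich elements and act in hormone, stress, senescence and seed programmes. m6A is the commonest internal mark of plant mRNA, is written in RAC sequences (R is A or G) mostly near the stop codon and in the 3′ UTR, and is read by proteins that change the stability and polyadenylation of the transcript.

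Transcript levels were deposited as TPM, a share of each library's reads corrected for transcript length, and the 16 libraries held between 12856679 and 15516038 reads worked out from these values. A gene was tested when it reached 1 TPM in at least 2 libraries, which 28562 genes and 51 of the 58 OsC3H genes did. All 16 libraries entered 1 limma fit on log2(TPM + 1), and a gene is called different where its adjusted p over all tested genes was below 0.05 and its tissues differed at least 2-fold, or 1 on the log2 scale. A difference on this scale understates the change of genes near 0. In bulk tissue, fewer cells of a type that expresses a gene and less RNA per cell cannot be told apart.

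The tissue labels were checked with marker genes. All 4 endosperm markers (glutelins GluA-1, GluA-2 and GluB-1, and the starch synthase Wx) were highest in endosperm and all 3 embryo markers (oleosins OLE18 and OLE16, and OsVP1) in embryo, but each seed part also held the markers of the other. The endosperm markers summed to between 45447 and 49167 TPM in endosperm and to between 3302 and 3503 TPM in embryo, and the embryo markers to between 24739 and 29042 TPM in embryo and to between 6388 and 7513 TPM in endosperm. The part that this shared RNA has in the seed results was not tested. Of 5 floral MADS-box genes, 4 were highest in panicle, and OsMADS58 stood at 48.1 TPM in panicle and 56.8 TPM in endosperm. The 3 leaf markers (OsRcaII, RBCS and CAB2R) summed to between 1429 and 1548 TPM in light-grown plumules and to between 1845 and 1847 TPM in dark-grown plumules, so these markers did not set the light-grown plumules above the dark-grown ones.

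Most OsC3H genes were expressed in every tissue at moderate levels, and a few had reads almost only in seeds or were near 0 in some tissues. Their summed level lay between 1013 ± 19.1 TPM in light-grown plumules and 2080 ± 24.6 TPM in seedlings at 2 weeks (SD, n = 2). The mean over the 8 tissues was at least 10 TPM for 34 genes and at least 100 TPM for 3, OsC3H33, OsC3H37 and OsC3H38. The highest and lowest tissue of a tested gene differed by a median of 1.48 on the log2 scale, against 2.21 for all tested genes. The range was below 1 for 9 of the 51 genes (17.6%), whereas 6.45% of all tested genes had so narrow a range, and it was at least 2 for 14 of them (27.5%, against 56.3% of all). After median-of-ratios scaling the median ranges were 1.18 and 2.07. The genes shared no tissue of highest level. Panicle was highest for 16 (31.4%, against 26.0% of all tested genes), seedlings at 2 weeks for 13 (25.5% against 11.7%) and flag leaf for 7 (13.7% against 21.6%). Embryo and dark-grown plumules were highest for 5 each (9.80%, against 9.58% and 9.68%) and endosperm for 3 (5.88% against 6.08%). Seedlings at 8 days were highest for 2 (3.92% against 8.04%) and light-grown plumules for none (against 7.29%). Endosperm was the lowest tissue of 21 genes (41.2%, against 30.2% of all tested genes). These tallies hold for unscaled TPM. After division by median-of-ratios size factors 14 genes were highest in seedlings at 2 weeks (27.5%, against 11.8% of all tested genes). Another 12 were then highest in endosperm (23.5% against 16.3%) and 4 in panicle (7.84% against 11.5%), and endosperm was lowest for 4 (7.84%, against 12.5% of all). All 51 varied over the tissues in the limma F test (adjusted p from 1.04e-14 for OsC3H54 to 8.03e-04 for OsC3H3), as did 98.6% of all tested genes.

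**Figure D1:**
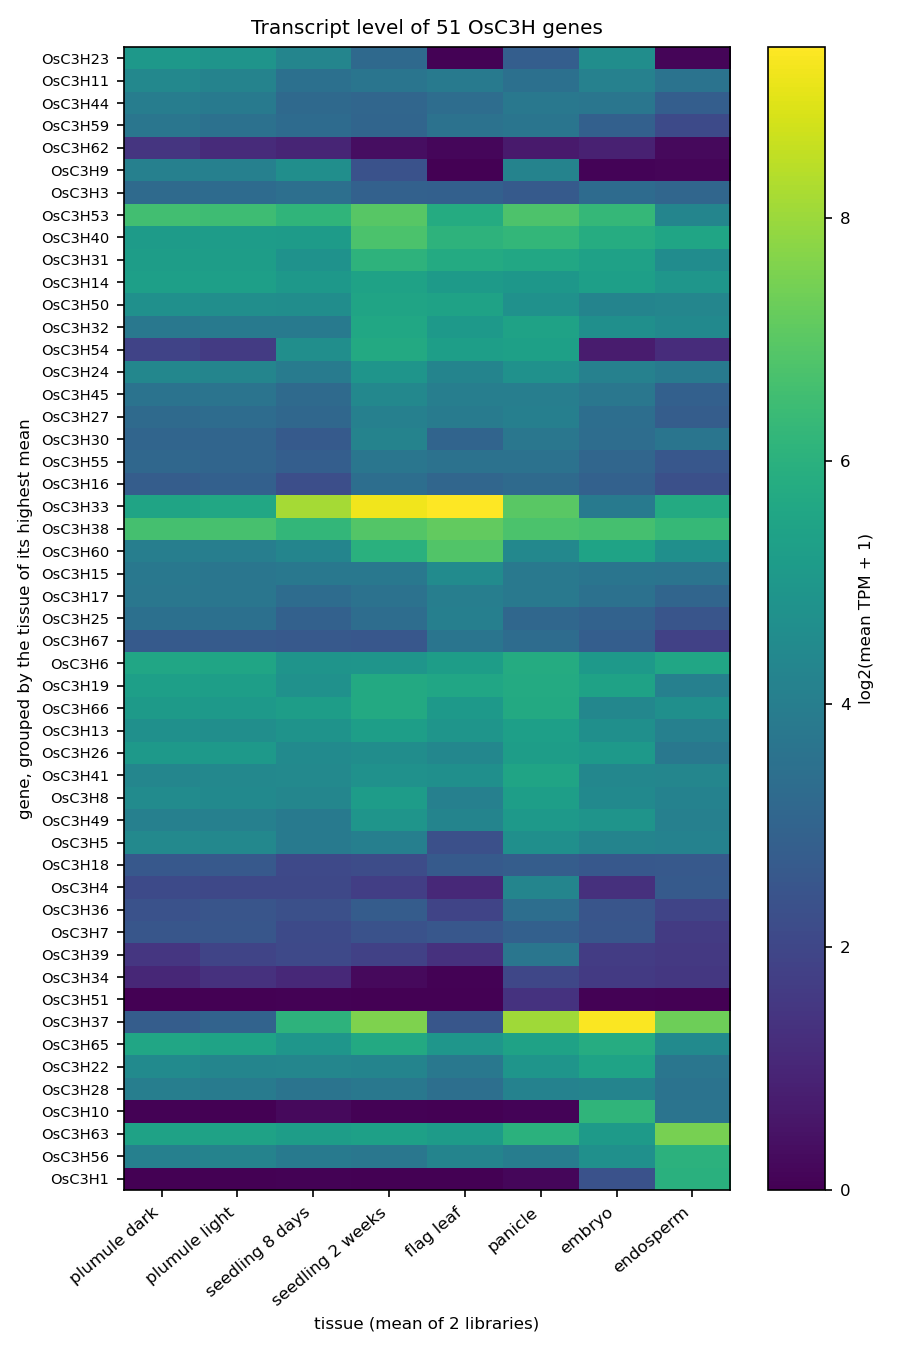
Heat map of mean transcript level, in log2(mean TPM + 1) over 2 libraries, for the 51 tested OsC3H genes (vertical axis, grouped by the tissue of their highest mean) in 8 tissues (horizontal axis). OsC3H33 is brightest in flag leaf and OsC3H37 in embryo, and OsC3H10 and OsC3H1 are near 0 outside seeds. The range over tissues is below 1 on the log2 scale for 9 of the 51 genes.

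The 7 untested genes were OsC3H21, OsC3H29, OsC3H42, OsC3H43, OsC3H48, OsC3H57 and OsC3H58. None of them exceeded 1.12 TPM in any library. OsC3H48 and OsC3H58 had 0 reads in all 16 libraries, and OsC3H29 had 1 read. OsC3H42 reached 0.934 and 1.12 TPM in its panicle libraries and OsC3H43 reached 0.803 and 1.07 TPM in its embryo libraries, just outside the filter. The lowest genes inside it were OsC3H51, with 1.85 and 1.33 TPM in panicle and at most 0.0593 TPM in any other library, OsC3H62, with 1.64 and 1.78 TPM in dark-grown plumules, and OsC3H34, with 3.21 and 2.8 TPM in panicle.

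OsC3H38, OsC3H60 and OsC3H45 are relatives of general RNA-processing factors. OsC3H38 and OsC3H60 encode small subunits of the splicing factor U2AF, which recognises the 3′ splice site. OsC3H38 was among the evenest genes, with 99.3 and 98.8 TPM in dark-grown plumules, 101 and 100.1 in light-grown plumules, 69.5 and 79.2 in seedlings at 8 days, 118 and 115 in seedlings at 2 weeks, 144 and 138 in flag leaf, 106 and 104 in panicle, 102 and 96.5 in embryo, and 84.2 and 71.9 in endosperm. Its tissue means differed by at most 1.90-fold, a range of 0.92 on the log2 scale, and both flag leaf libraries lay above all others. OsC3H60 was uneven, with 115 and 111 TPM in flag leaf, 62.9 and 62.1 in seedlings at 2 weeks, 42.9 and 41.9 in embryo, 24.9 and 24.3 in endosperm, 19.2 and 21.2 in panicle, 17.6 and 19.0 in seedlings at 8 days, 14.6 and 15.7 in light-grown plumules, and 14.6 and 15.5 in dark-grown plumules. Both flag leaf libraries lay above all others, and the ranges of flag leaf, of seedlings at 2 weeks, of embryo and of endosperm did not overlap each other or those of the remaining tissues, whereas both plumule groups overlapped. OsC3H45, the rice relative of the Arabidopsis polyadenylation factor CPSF30, whose long form carries an m6A-reading YTH domain, was lower and ranged from 6.71 and 6.17 TPM in endosperm to 19.6 and 20.8 TPM in seedlings at 2 weeks. The other evenest genes of at least 10 TPM were OsC3H14, between 28.6 and 42.1 TPM over the 16 libraries with a range of 0.49 on the log2 scale, and OsC3H28, with a range of 0.80.

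The most abundant member was OsC3H33. Its level was 45.5 and 42.8 TPM in dark-grown plumules, 49.8 and 47.2 in light-grown plumules, 308 and 258 in seedlings at 8 days, 619 and 563 in seedlings at 2 weeks, 650 and 706 in flag leaf, 134 and 121 in panicle, 15.2 and 12.2 in embryo, and 42.5 and 62.2 in endosperm. Leafy tissues were high and embryo was low, with no overlap between flag leaf, seedlings at 2 weeks, seedlings at 8 days, panicle and embryo, while endosperm overlapped the plumules. OsC3H33 had the highest mean of all members, 230 TPM, and it and OsC3H37 together gave 38.3% of the summed OsC3H level in flag leaf, 37.5% in seedlings at 2 weeks and 38.4% in embryo, but 4.85% and 5.47% in dark- and light-grown plumules.

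OsC3H37 had the widest range of all members, 6.85 on the log2 scale. Its level was 657 and 648 TPM in embryo, 265 and 263 in panicle, 192 and 186 in seedlings at 2 weeks, 157 and 160 in endosperm, 72.6 and 60.1 in seedlings at 8 days, 7.27 and 6.67 in light-grown plumules, 6.39 and 5.28 in dark-grown plumules, and 3.63 and 5.91 in flag leaf. Embryo, panicle, seedlings at 2 weeks, endosperm and seedlings at 8 days each stood apart, and flag leaf overlapped the dark-grown plumules. Flag leaf, in which OsC3H37 was low, was the organ of the highest OsC3H33 level.

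**Figure D2:**
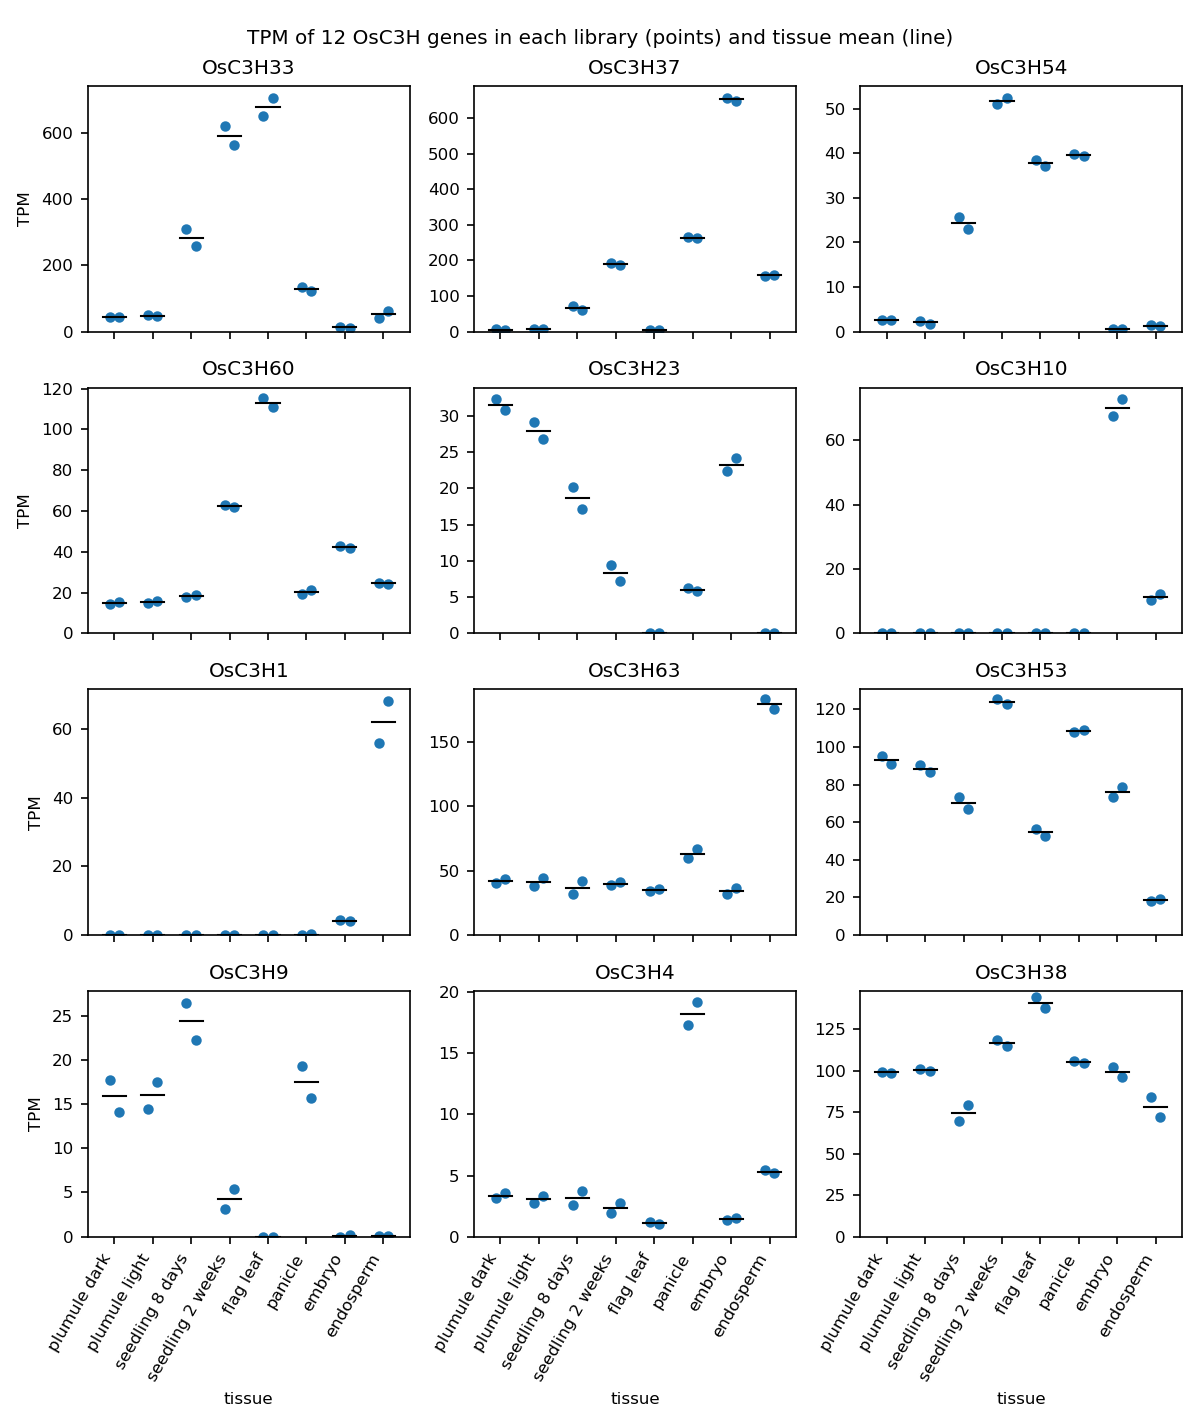
TPM of 12 OsC3H genes in each of the 2 libraries per tissue (points) with the tissue mean (line), with the vertical axis starting at 0 in each panel. OsC3H37 reaches 657 and 648 TPM in embryo, OsC3H33 reaches 650 and 706 TPM in flag leaf, OsC3H10 and OsC3H1 have reads almost only in seeds, and OsC3H38 stays between 69.5 and 144 TPM.

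The comparison of embryo with endosperm asks which members differ between the parts of the seed. Here 13 of 51 genes were called, 8 higher in embryo and 5 higher in endosperm, a share of 25.5% against 33.1% of all tested genes (20.2% higher and 13% lower). The median difference was 0.43 for the OsC3H genes and 0.20 for all genes. OsC3H10, which has been tied to drought tolerance in rice, had 67.5 and 72.7 TPM in embryo, 10.4 and 12.3 TPM in endosperm, and between 0 and 0.193 TPM in the 12 other libraries. Embryo was above endosperm without overlap by 2.53 ± 0.12 (SE) on the log2 scale (limma adjusted p = 2.35e-10). The counts behind these levels were 1563 reads in the 2 embryo libraries, 281 in the 2 endosperm libraries and 7 in the 12 non-seed libraries.

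OsC3H1 had the opposite seed pattern. It stood at 55.9 and 68.1 TPM in endosperm, 4.40 and 4.04 TPM in embryo and at most 0.176 TPM elsewhere, that is 1903, 117 and 4 reads. The libraries of endosperm were far above those of embryo, and the difference of embryo minus endosperm was -3.59 ± 0.11 on the log2 scale (limma adjusted p = 5.57e-12). Both genes passed the filter through seed libraries alone, so that they differ between seed and non-seed tissues gives no support to the counts below. The 3 embryo markers summed to 6388 and 7513 TPM in endosperm, against 24739 and 29042 TPM in embryo, and the 4 endosperm markers to at most 3503 TPM in embryo; their part in the values of OsC3H10 and OsC3H1 was not tested.

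OsC3H23 was the gene with the largest difference between the seed parts. It had 22.5 and 24.1 TPM in embryo and 0.0562 and 0.111 TPM in endosperm, a difference of 4.49 ± 0.12 on the log2 scale (limma adjusted p = 1.79e-12). It was also close to 0 in flag leaf (0 and 0.103 TPM), whereas dark-grown plumules reached 32.3 and 30.9 TPM, light-grown plumules 29.1 and 26.8, seedlings at 8 days 20.2 and 17.1, seedlings at 2 weeks 9.49 and 7.23, and panicle 6.23 and 5.80. Endosperm and flag leaf were the only tissues in which both libraries stayed below 1 TPM. The identifier of OsC3H22 (Os03g0328900) is close to that of OsC3H23 (Os03g0329200) in the numbering of chromosome 3, and gene order was not examined. OsC3H22 was also higher in embryo, at 42.1 and 44.2 TPM against 11.6 and 12.1 TPM in endosperm, by 1.78 ± 0.07 (limma adjusted p = 8.56e-11).

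OsC3H37 (653 against 158 TPM on average) and OsC3H53 (75.9 against 18.6 TPM) completed the larger differences towards embryo, at 2.04 and 1.97 on the log2 scale. Towards endosperm, OsC3H63 had 183 and 175 TPM against 32.1 and 36.3 TPM in embryo, and OsC3H56 had 61.4 and 68.6 TPM against 25.2 and 25.2 TPM. In both, endosperm stood above embryo without overlap, and the differences of embryo minus endosperm were -2.36 ± 0.12 and -1.33 ± 0.09 on the log2 scale (limma adjusted p = 6.81e-10 and 1.41e-08). OsC3H33 and OsC3H4 were the remaining genes called towards endosperm. When TPM was rescaled by median-of-ratios size factors, 11 genes were called, 5 towards embryo and 6 towards endosperm (13% and 19.2% of all tested genes). OsC3H19, OsC3H26 and OsC3H65, higher in embryo by 1.30 to 1.32, then stood between 0.82 and 0.84 and were no longer called.

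Endosperm was next set against the mean of the 6 non-seed tissues. On the TPM scale 14 of 51 genes were called, 5 higher and 9 lower, a share of 27.5% against 43.6% of all tested genes (7.81% higher and 35.8% lower). The median difference of all genes was -0.68 on this scale and -0.13 after median-of-ratios scaling (the 4 endosperm markers alone summed to at least 45447 TPM there). With that scaling 10 OsC3H genes were called higher and 4 lower (15.6% and 19.1% of all tested genes), and edgeR on the worked-out reads called 11 higher and 3 lower (21.1% and 19.4% of all). The balance of calls in the family thus moved from mostly lower to mostly higher with the scale, while no called gene changed its sign.

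The genes higher in endosperm than in the non-seed mean were OsC3H1, OsC3H10, OsC3H37, OsC3H63 and OsC3H56, and all 5 were called on either scale. OsC3H1 differed by 5.93 ± 0.09 on the log2 scale and OsC3H10 by 3.55 ± 0.09. Both passed the filter through seed libraries alone, so these differences were bound to arise and give no support to the count. OsC3H63 had 183 and 175 TPM in endosperm and between 31.7 and 66.5 TPM in the non-seed libraries, so endosperm lay above each of them, by 2.06 ± 0.09 over their mean (limma adjusted p = 7.13e-11). OsC3H56 had 61.4 and 68.6 TPM in endosperm and 11.1 to 18.5 TPM in the non-seed libraries, again without overlap, and differed by 2.03 ± 0.07 (limma adjusted p = 4.62e-12). OsC3H37 was above the non-seed mean by 2.33 ± 0.11, but its endosperm libraries overlapped the span of the non-seed ones, since panicle and seedlings at 2 weeks were higher.

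Of the 9 genes lower in endosperm, OsC3H53, OsC3H54, OsC3H23 and OsC3H9 were called on both scales. OsC3H53 had 18.3 and 19.0 TPM in endosperm, against 95.1 and 91.0 TPM in dark-grown plumules, 90.3 and 86.6 in light-grown plumules, 73.2 and 66.9 in seedlings at 8 days, 125 and 123 in seedlings at 2 weeks, 56.6 and 52.6 in flag leaf, 108 and 109 in panicle, and 73.2 and 78.5 in embryo. No other library came within 2-fold of the endosperm ones, and the difference from the non-seed mean was -2.16 ± 0.05 on the log2 scale (limma adjusted p = 1.92e-13) and -1.32 after rescaling. OsC3H54 was low in both seed parts (1.41 and 1.21 TPM in endosperm, 0.607 and 0.65 TPM in embryo). OsC3H9 was represented by 3 reads over both endosperm libraries and 2 over both embryo libraries, and edgeR did not call it against the non-seed mean in either seed part, whereas limma and DESeq2 did. OsC3H33, OsC3H59, OsC3H19, OsC3H67 and OsC3H26 had differences of -1.77 to -1.04 on the TPM scale, and rescaling left -0.91 to -0.22, without a call. OsC3H26 was also not called without endosperm replicate 2 (-0.99).

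In embryo against the same 6 tissues, 8 of 51 genes were called, 5 higher and 3 lower. That was 15.7%, against 35.4% of all tested genes (9.42% higher and 26% lower), and the median of all genes was -0.35 on the TPM scale and -0.10 after rescaling. All 8 were called after rescaling too. OsC3H10 (6.08 ± 0.09) and OsC3H37 (4.36 ± 0.11, limma adjusted p = 2.36e-13) differed most, followed by OsC3H1 (2.34), OsC3H23 (1.22) and OsC3H22 (1.13). OsC3H10 and OsC3H1 passed the filter through seed libraries alone, so their differences give no support to the count. The lower genes were OsC3H33 (-3.61 ± 0.11), OsC3H54 (-3.38 ± 0.08) and OsC3H9 (-3.13 ± 0.15). OsC3H33 in embryo, at 15.2 and 12.2 TPM, was below every non-seed library, the lowest of which held 42.8 TPM.

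In panicle against the 5 vegetative groups (both plumules, both seedlings and flag leaf), 8 of 51 genes were called and all were higher. The share was 15.7%, against 27.5% of all tested genes (19% higher and 8.5% lower). After median-of-ratios scaling 4 were called higher and 2 lower (11.5% and 12.1% of all tested genes), and the median of all genes moved from 0.29 to -0.05. OsC3H4 and OsC3H39 peaked in panicle. OsC3H4 had 17.3 and 19.2 TPM there, 5.43 and 5.23 TPM in endosperm, and between 1.05 and 3.72 TPM in the vegetative and embryo libraries. OsC3H39 had 12.8 and 11.3 TPM in panicle and between 1.39 and 4.01 TPM in all others. Neither overlapped any other tissue, and panicle exceeded the vegetative mean by 2.46 ± 0.12 and 1.98 ± 0.14 on the log2 scale (limma adjusted p = 3.27e-10 and 2.49e-08). OsC3H37 differed most, by 3.67 ± 0.11, and OsC3H51, at 46 reads in panicle and 2 in the other 14 libraries, by 1.36 ± 0.07. OsC3H51 passed the filter through its panicle libraries alone, so its difference was bound to arise and gives no support to the count. The OsC3H54 libraries in panicle lay between those of flag leaf and of seedlings at 2 weeks (1.51 above the vegetative mean). After rescaling, OsC3H34 (0.90), OsC3H36 (0.66) and OsC3H9 (0.73) were not called, OsC3H51 was not tested, and OsC3H36 was not called without replicate 1 of the seedlings at 8 days (0.98).

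**Figure D3:**
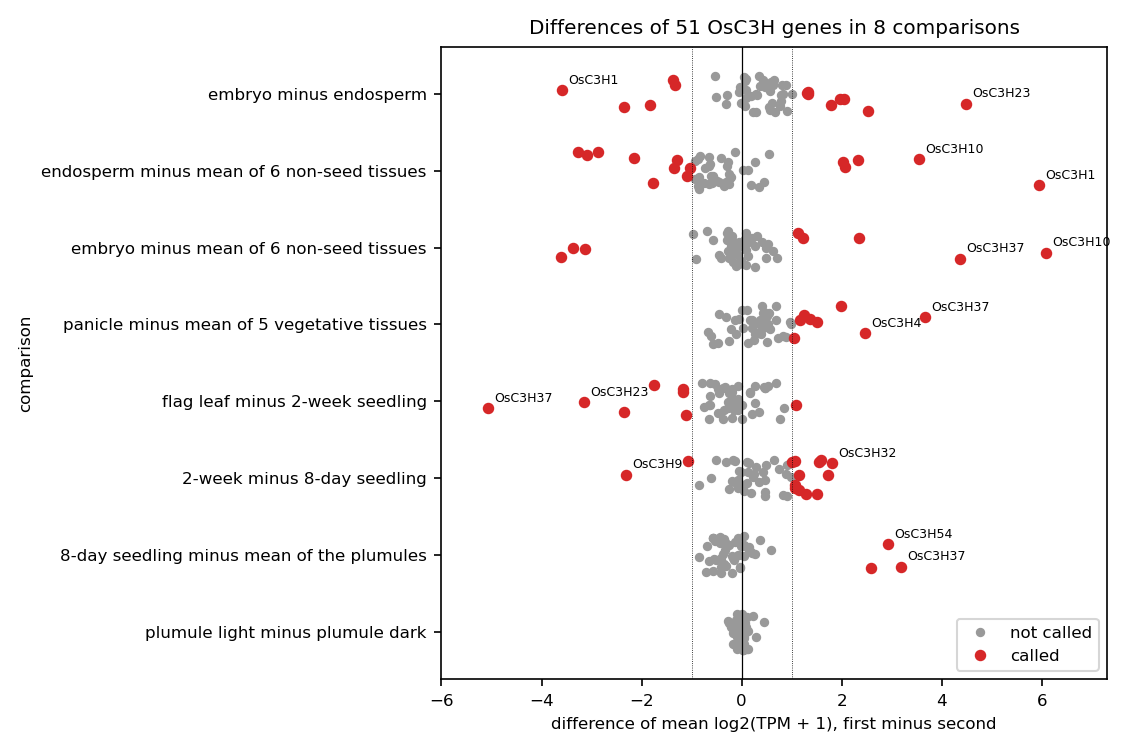
Difference of mean log2(TPM + 1) between tissues for the 51 tested OsC3H genes (horizontal axis) in 8 comparisons (vertical axis), with called genes in red, others in grey and dotted lines at a 2-fold difference. OsC3H10 in embryo (6.08) and OsC3H1 in endosperm (5.93) lie farthest right, OsC3H37 in flag leaf lies farthest left (-5.07), and no gene is called between plumules in light and dark.

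The leaf comparison set flag leaf against seedlings at 2 weeks. Of 51 genes 8 were called, 1 higher in flag leaf and 7 lower, that is 15.7% against 31.1% of all tested genes (13.5% higher and 17.6% lower). OsC3H37 differed most (-5.07 ± 0.15, limma adjusted p = 2.07e-12), with 3.63 and 5.91 TPM in flag leaf against 192 and 186 TPM. OsC3H23 (-3.15 ± 0.12) and OsC3H9 had almost no reads in flag leaf. OsC3H9 had 0 reads in both flag leaf libraries and 3.09 and 5.35 TPM in seedlings at 2 weeks, which is at least 17.6-fold higher than a floor of 3 reads per flag leaf library.

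OsC3H5 had 4.13 and 3.80 TPM in flag leaf and between 12.2 and 26.0 TPM in all other libraries, so flag leaf stood below every other tissue. Its difference from seedlings at 2 weeks was -1.75 ± 0.12 (limma adjusted p = 1.35e-08). OsC3H30, OsC3H53 and OsC3H8 differed by -1.18, -1.17 and -1.11, and OsC3H30 was no longer called without flag leaf replicate 1 (-0.97). The only gene higher in flag leaf was OsC3H67, at 10.9 and 12.1 TPM against 5.07 and 4.77 TPM (1.08 ± 0.12, limma adjusted p = 2.28e-06). OsC3H33, OsC3H38 and OsC3H60, the 3 members with the highest levels in flag leaf, differed by less than 2-fold from seedlings at 2 weeks.

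Seedlings at 2 weeks against seedlings at 8 days gave 14 called genes of 51, of which 12 were higher at 2 weeks and 2 lower. The share was 27.5%, against 28% of all tested genes, and the share called higher was 23.5%, against 13.5% of all. The median difference was 0.34 for the OsC3H genes and 0.01 for all genes. After median-of-ratios scaling 8 genes were called, 6 higher and 2 lower (10.5% and 17.1% of all tested genes), and without a single library between 10 and 15. The 6 genes called higher on both scales were OsC3H32, OsC3H60, OsC3H40, OsC3H30, OsC3H37 and OsC3H31.

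OsC3H32 had 46.1 and 49.8 TPM at 2 weeks and 11.6 and 14.7 TPM at 8 days. OsC3H60 rose from 17.6 and 19.0 TPM to 62.9 and 62.1 TPM, and OsC3H40 from 33.1 and 36.0 TPM to 105 and 105 TPM. In none of these did the libraries overlap, and the differences were 1.80 ± 0.12, 1.72 ± 0.08 and 1.58 ± 0.09 on the log2 scale (limma adjusted p = 1.96e-08, 3.15e-10 and 2.40e-09). OsC3H30 (1.55) and OsC3H37 (1.5) followed. OsC3H9, at 26.5 and 22.2 TPM at 8 days and 3.09 and 5.35 TPM at 2 weeks, and OsC3H23, at 20.2 and 17.1 TPM and 9.49 and 7.23 TPM, went the other way (-2.31 ± 0.19 and -1.08 ± 0.12). The 6 genes that lost the call after scaling, OsC3H16, OsC3H24, OsC3H33, OsC3H45, OsC3H49 and OsC3H54, were 1.00 to 1.15 higher before it and 0.82 to 0.98 higher after it. Leaving out a library also cost calls here: replicate 1 at 8 days for OsC3H23 (-0.96), OsC3H16 (0.88), OsC3H24 (0.93) and OsC3H49 (0.92), replicate 2 at 8 days for OsC3H33 (0.93) and OsC3H54 (0.98), replicate 2 at 2 weeks for OsC3H23 (-0.90), OsC3H24 (0.95) and OsC3H49 (0.93), and replicate 1 at 2 weeks for OsC3H33 (0.997).

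Between seedlings at 8 days and the mean of the plumules, 3 of 51 genes were called, all higher in seedlings, which is 5.88% against 18.2% of all tested genes (12.7% higher and 5.47% lower). They were OsC3H37 (3.19 ± 0.13), OsC3H54 (2.92 ± 0.09) and OsC3H33 (2.58 ± 0.13), each with limma adjusted p of at most 1.31e-09. OsC3H54 had 2.63 and 2.71 TPM in dark-grown plumules, 2.37 and 1.78 in light-grown plumules, 25.7 and 23.0 in seedlings at 8 days, 51.1 and 52.5 in seedlings at 2 weeks, 38.4 and 37.2 in flag leaf, and 39.9 and 39.4 in panicle. It was thus high in both seedlings, flag leaf and panicle and low in plumules, embryo and endosperm, with no overlap between these sets. The 3 leaf markers summed to between 26648 and 27894 TPM in seedlings at 8 days and to at most 1847 TPM in plumules, and their part in the 3 differences was not tested.

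Between plumules grown in light and in the dark, no OsC3H gene was called different. limma, edgeR and DESeq2 each called 0 of 51, against 0.007% of all tested genes for limma, and 4 genes had an unadjusted p below 0.05 in limma, 2 in edgeR and 2 in DESeq2. The differences of light minus dark lay between -0.28 for OsC3H62 and 0.45 ± 0.18 (SE) for OsC3H39, at 3.09 and 2.53 TPM in light against 1.75 and 1.83 TPM in the dark. The smallest limma adjusted p was 0.545, for OsC3H22.

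m6A was deposited as 1 fraction (0 to 1) for each position and tissue, together with a read depth and a flag for detection, all with both replicates combined, so m6A values have no replicate error here and are given without tests. Counted positions are those that carry the flag in a tissue and have 20 or more reads there. The table listed 205691 positions, 529 of them in 47 OsC3H genes, and 495 were counted in at least 1 tissue, in 46 genes. Of the 495, 236 (47.7%) were counted in a single tissue and 42 (8.48%) in all 8, against 51.3% and 6.36% of positions in other genes. RAC positions made up 301 of the 529, GAT positions 101 and other sequences 127. The region was 3′ UTR for 220 listed positions (41.6%) and coding sequence for 215 (40.6%). Of all other positions 32.0% and 34.9% lay there, but 15.8% of those were outside the annotated regions, against 1.32% in OsC3H genes. The OsC3H positions were taken by gene identifier, so positions outside genes could hardly enter them. Over positions within exons, introns or incomplete transcripts the 3′ UTR share was 42.1% against 38.0% and the coding share 41.2% against 41.5%.

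The motifs show what was methylated. The commonest 5-base sequences at the listed positions are given here, 5′ to 3′ as in the deposited table, with the methylated A in capitals and its class in front:
GAT, 43 positions: agAtg
RAC, 42 positions: agAca
RAC, 31 positions: agAct
RAC, 27 positions: tgAca
In each tissue between 122 (seedlings at 2 weeks) and 208 (panicle) positions in OsC3H genes were counted. The 3′ UTR held between 46.2% of them in panicle and 58.9% in embryo. Over positions within annotated regions the share was 46.2% in panicle, against 45.97% of other positions, and 59.2% in embryo, against 54.7%. The mean fraction ran from 0.414 in panicle to 0.473 in seedlings at 2 weeks. At all other positions it ran from 0.413 in seedlings at 8 days to 0.463 in seedlings at 2 weeks. Positions in the 3′ UTR had higher mean fractions than those in coding sequence in every tissue, for example 0.567 against 0.281 in panicle and 0.526 against 0.391 in seedlings at 2 weeks. The same held at all other positions in every tissue, with 0.511 against 0.303 in panicle and 0.545 against 0.342 in seedlings at 2 weeks.

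The number of counted positions did not follow transcript level at the top of the family. All 34 genes of at least 10 TPM had a counted position (95.5% of the other genes at that level did), as did 12 of 15 genes between 1 and 10 TPM (64.3% of the others) and none of 9 below 1 TPM (4.35% of the others). The genes above 1 TPM with no listed position were OsC3H34 and OsC3H39. The most listed positions were in OsC3H19 (25), OsC3H26 (23), OsC3H13 (22), OsC3H5 (21) and OsC3H63 (21), which had means between 16.7 and 58.9 TPM. OsC3H33, at 230 TPM, had 1 listed position, and OsC3H37, at 168 TPM, had 4. Across the 49 genes of at least 1 TPM Spearman's rho between counted positions and mean TPM was 0.55, and across the 34 genes of at least 10 TPM it was 0.17; genes share the libraries and reads are needed to detect a position, so these are descriptions.

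**Figure D4:**
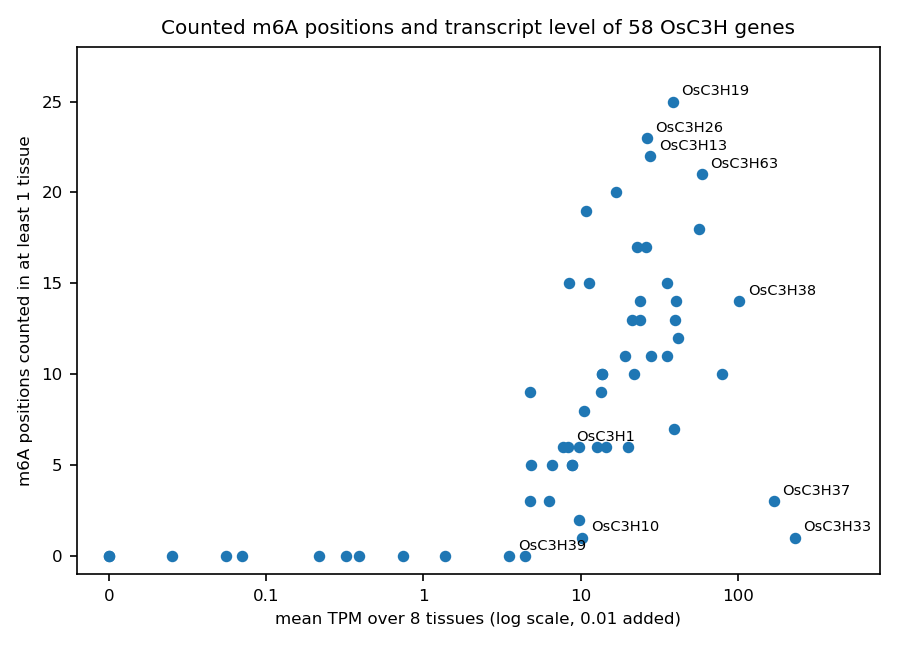
Number of m6A positions counted in at least 1 tissue (vertical axis) against mean TPM over 8 tissues (horizontal log axis, 0.01 added) for the 58 OsC3H genes. The 2 most abundant genes, OsC3H33 and OsC3H37, have 1 and 3 counted positions, whereas OsC3H19 has 25.

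For OsC3H33 and OsC3H37 depth was high and fractions were low. The sequences are shown because each gene has few positions, and the main ones share a GAT motif. All coordinates are of the IRGSP-1.0 genome build, and the annotated regions are those of the deposited table:
OsC3H33, chromosome 5, position 1664098, + strand, 3′ UTR: agAtg
OsC3H37, chromosome 5, position 26171442, - strand, 3′ UTR: agAtg
OsC3H37, chromosome 5, position 26172092, - strand, coding sequence: tgAtg
OsC3H37, chromosome 5, position 26171324, - strand, 3′ UTR: acAca
OsC3H37, chromosome 5, position 26172291, - strand, 5′ UTR: ggAca
The OsC3H33 position had a fraction of 0.0875 at a depth of 1935 in flag leaf, 0.083 at 957 in seedlings at 2 weeks, 0.0773 at 484 in seedlings at 8 days and 0.119 at 367 in panicle, the only tissue in which it was counted. OsC3H37 at 26171442 was counted in 5 tissues, with fractions of 0.217 in light-grown plumules (depth 31), 0.127 in seedlings at 8 days (147), 0.128 in seedlings at 2 weeks (629), 0.103 in embryo (3258) and 0.122 in endosperm (716). The ggAca position of OsC3H37 lay between 0.0326 and 0.0639 wherever its depth was above 50 and was counted nowhere. The position at 26171324 was counted in flag leaf alone, with a fraction of 1 at a depth of 25, and stood at 0.219 at a depth of 5253 in embryo. Apart from that flag leaf value and an uncounted 0.630 at a depth of 10 for ggAca in light-grown plumules, every fraction at these 5 positions was below the means of 0.414 to 0.473 of counted OsC3H positions. Those means cover all motifs and counted positions only, whereas most fractions at these 5 positions were not counted. Counted GAT positions in OsC3H genes had lower means, from 0.234 in light-grown plumules to 0.319 in seedlings at 2 weeks.

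The genes found mainly in seeds carried their m6A in the seed tissues, where reads existed. OsC3H1 had 6 RAC positions, 5 in the 3′ UTR and 1 in coding sequence, each counted in endosperm only. Their fractions there ran from 0.114 to 0.707 at depths of 125 to 265, and in embryo only 1 of them had a depth of at least 20 reads. OsC3H10 had 1 listed position, a GAT in coding sequence (chromosome 1, position 30825311, + strand, agAtg), with a fraction of 0.102 at a depth of 448 in embryo and 0.230 at 52 in endosperm.

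OsC3H63, which peaked in endosperm, had the most positions counted in all 8 tissues, 6. OsC3H31 followed with 5, and OsC3H14, OsC3H38 and OsC3H40 had 4 each. The 42 such positions were in 20 genes. Their mean fraction was lowest in dark-grown plumules (0.477), then 0.488 in light-grown plumules, 0.515 in seedlings at 8 days, 0.515 in flag leaf, 0.526 in endosperm, 0.527 in embryo and 0.533 in panicle, and highest in seedlings at 2 weeks (0.569). The 11595 positions of other genes counted in all tissues also had their lowest mean in dark-grown plumules (0.515) and their highest in seedlings at 2 weeks (0.585).

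The 5 positions with the highest mean fractions among those 42 follow, and whether a fraction of 1 means full methylation was not tested. All are RAC, and that of OsC3H63 lies in a transcript the table calls incomplete, whereas the others are in 3′ UTRs:
OsC3H66, chromosome 12, position 12202823, + strand: aaAca
OsC3H63, chromosome 11, position 16250526, - strand: ggAca
OsC3H13, chromosome 2, position 3303682, + strand: tgAca
OsC3H32, chromosome 4, position 34272736, - strand: agAca
OsC3H65, chromosome 12, position 10436290, - strand: tgAca
The first 4 had a fraction of 1 in all 8 tissues, at depths of at least 43, 43, 44 and 27. The position in OsC3H65 was at 1 in 6 tissues, at 0.908 in dark-grown plumules and at 0.859 in flag leaf. Among other genes, 876 of the 11595 positions (7.55%) were at 1 in all tissues, against 4 of 42 (9.52%) here.

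Within OsC3H63, neighbouring positions differed widely in fraction. Next to the ggAca at fraction 1, a second ggAca at position 16250462 had 0.490 in dark-grown plumules, 0.614 in light-grown plumules, 0.792 in seedlings at 8 days, 1 in seedlings at 2 weeks (depth 43), 0.691 in flag leaf, 0.941 in panicle, 0.671 in embryo and 0.686 in endosperm (depth 612). The mean of its 6 common positions was between 0.383 in dark-grown plumules and 0.570 in seedlings at 2 weeks, and it was 0.423 in endosperm, where its transcript level was highest. The 4 common positions of OsC3H38, all GAT and all in the 3′ UTR, had means between 0.336 in light-grown plumules and 0.435 in embryo.

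**Figure D5:**
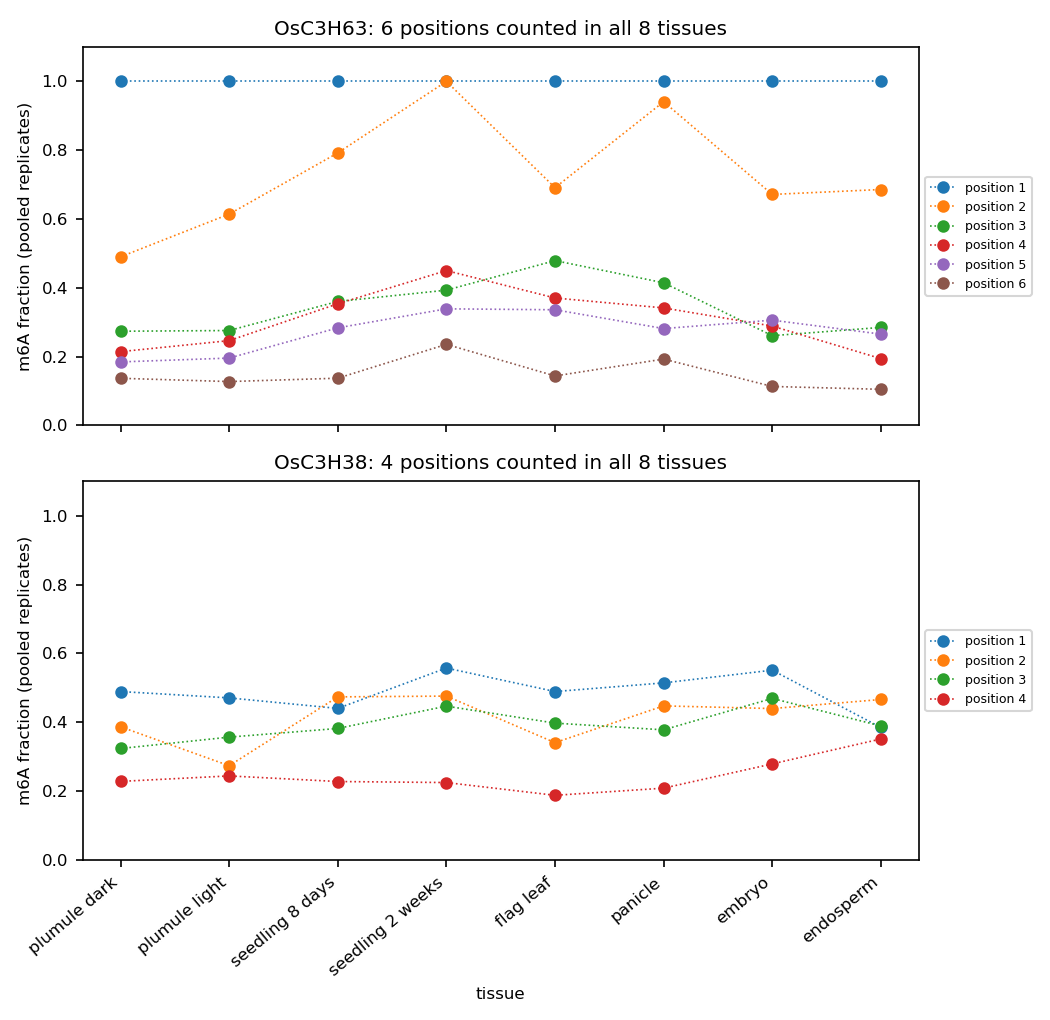
m6A fraction (vertical axis, 1 value per tissue from combined replicates, no error) in 8 tissues for the 6 OsC3H63 and the 4 OsC3H38 positions counted in every tissue, numbered by mean fraction. Position 1 of OsC3H63 is at 1 throughout, position 2 runs from 0.490 to 1, and the OsC3H38 positions lie between 0.188 and 0.558.

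The range of the fraction between tissues was taken over 174 OsC3H positions, flagged in at least 1 tissue and never below a depth of 50. It includes fractions without the flag. Its median was 0.165, against 0.154 for other genes. It was at least 0.5 for 4 of 82 RAC positions (4.88%), for 0 of 39 GAT positions and for 21 of 53 other positions (39.6%), and in other genes for 6.67%, 0.0212% and 38.9%. The 5 positions with the widest range were all outside RAC and GAT:
OsC3H41, chromosome 6, position 12357703, + strand, 3′ UTR: atAct
OsC3H63, chromosome 11, position 16251995, - strand, incomplete transcript: tcAtt
OsC3H24, chromosome 3, position 28010470, + strand, coding sequence: gtAcc
OsC3H24, chromosome 3, position 28010817, + strand, coding sequence: caAgt
OsC3H40, chromosome 6, position 3536875, - strand, 3′ UTR: ctAct
Each ran from 0 in one tissue to 1 in another. The OsC3H41 position was at 1 in light-grown plumules, both seedlings, flag leaf and panicle, at 0.891 in dark-grown plumules, at 0.539 in endosperm and at 0 in embryo (depth 117), and the other 4 were counted in only 1 or 2 tissues. Among RAC positions, a choice made after the values were seen, the widest range was 0.764 at OsC3H63 position 16250538 (aaAct). It ran from 0.236 in panicle (depth 169, not flagged) to 1 in seedlings at 2 weeks (depth 52). The next was 0.737 at OsC3H31, chromosome 4, position 33986085 (+ strand, 3′ UTR, taAct). It ran from 0.109 in endosperm (depth 87, not flagged) to 0.847 in seedlings at 8 days (depth 79). How far these differences exceed the error between replicates could not be measured from the combined values.

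Between plumules in light and in the dark, 212 OsC3H positions could be compared. The fraction was higher in light at 108, higher in the dark at 95 and equal at 9, with means of 0.352 and 0.344. The other genes had a mean difference of 0.00780, and the OsC3H genes one of 0.00743.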

How the data were processed

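The authors made the libraries from polyA RNA with 2 biological replicates per tissue, mapped them to IRGSP-1.0, calibrated mutation rates with spike-in probes and deposited the m6A fraction, the read depth as a count and a flag for each position, with replicates combined. They deposited TPM for the 16 input libraries; the aligner and counter are not given in the sources used. The 2-week flag column has a misspelled header and was matched by exclusion. TPM times gene length gave whole reads for 100% of values up to 100 reads (tolerance 0.1). Groups came from sample titles. limma 3.58.1 in R 4.3.3 was fitted to log2(TPM + 1) with trend and robust variances; edgeR 4.0.16 and DESeq2 1.42.0 on worked-out reads, other pseudocounts, filters, scaling, a replicate block and leaving out each library were alternatives. P-values were two-sided with Benjamini-Hochberg adjustment over all tested genes, and measure the spread between 2 samples per tissue. Scripts were tested on simulated data. Python 3.11.15, numpy 2.4.6, pandas 2.3.3 and matplotlib 3.10.9 were used. The members, gene lists and tests were chosen with earlier results of these data known. Named genes were the 5 highest and 3 lowest by mean TPM; per comparison the 5 largest called rises and falls with separate libraries and at least 10 TPM on the higher side, or all called where 5 or fewer; the 5 widest and 3 narrowest ranges; the 5 with most listed m6A positions; and OsC3H10. Other genes named were chosen after their values were seen. The planned classes of protein structure were not analysed here, and protein and genome sequence were not used.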

Additional observations from a re-analysis of the deposited data

How the results depend on the processing

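The 68 gene and comparison pairs called in the main limma fit kept their sign under all alternatives that tested them. Of these, 21 lost the call under at least 1 alternative: 17 with TPM divided by median-of-ratios size factors, 14 with edgeR, 13 with DESeq2 and 9 when a library was left out, whereas another pseudocount, no filter and the replicate block cost none. OsC3H51 in panicle was not tested after scaling, and with a filter at 5 TPM OsC3H51 and OsC3H34 in panicle were not tested and the other 66 pairs were called. The pairs tested and called under every alternative were 46. The count of called OsC3H genes changed by more than 1.5 times in 1 comparison: seedlings at 2 weeks against 8 days gave 14, and 8 after median-of-ratios scaling. Leaving out 1 library gave 50 to 51 called genes in the F test, 13 to 14 in embryo against endosperm, 14 to 15 in endosperm and 8 to 9 in embryo against the non-seed tissues, 7 to 10 in panicle, 7 to 8 in flag leaf, 10 to 15 at 2 weeks against 8 days, 3 to 4 at 8 days against plumules, and 0 in light against dark.

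The replicate numbers were not taken to pair the samples. The correlation of same-numbered deviations ran from -0.20 to 0.24 over 28 tissue pairs (median 0.10). It leaned to positive values, with 14 above 0.1 and 1 below -0.1, so it does not by itself show that the samples were unpaired. With the replicate block the counts of called genes were 51, 13, 14, 8, 8, 8, 14, 3 and 0, as without it.

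For m6A, the mean fraction of counted positions over the 8 tissues, 0.432, was 0.461 without a depth minimum, 0.377 at a depth of at least 50 and 0.363 with a fraction of at least 0.1 in place of the flag. The mean share in 3′ UTRs, 52.9%, was 47.6% at a depth of at least 50. Positions counted in all 8 tissues rose from 42 to 89 with a fraction of at least 0.1 in place of the flag. RAC positions alone numbered 279 of 495, and 65 of 174 positions reached a depth of 100 throughout. The cause of these changes beyond the altered sets of positions was not tested. With 2 libraries per tissue and 1 combined fraction, small differences in level and all differences in fraction between tissues remain without a firm error.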

Other observations

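Some CCCH genes are listed under other symbols and were left out of the family above. Of 6 such genes chosen by symbol after the table had been seen (DOS, C3H12, EHD4, C3H35, C3H46 and C3H47), 5 were tested and C3H47 had 0 TPM in all libraries. DOS, which delays the onset of senescence in rice, had 249 and 238 TPM in seedlings at 2 weeks, 248 and 238 in embryo, 213 and 193 in panicle, 75.1 and 57.0 in seedlings at 8 days, 54.6 and 57.2 in endosperm, 22.0 and 22.1 in dark-grown plumules, 19.2 and 19.5 in light-grown plumules, and 14.7 and 13.8 in flag leaf. Flag leaf was below all other libraries, with a log2 difference from seedlings at 2 weeks of -4.0 ± 0.10 (limma adjusted p = 6.11e-13). C3H46, known as LIC and tied to leaf and tiller angle, was even, between 6.92 and 14.0 TPM in the 16 libraries.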
